A study of Mus musculus with 8 samples.

Results

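The collagen genes measured here are the 44 protein-coding mouse genes with a collagen chain symbol (Col, a number, a, a number), of 21154 genes that the array's probes could be named for. They were chosen by symbol alone, and each was read from its brightest tested probe. RNA was taken from whole skin of female mice on the FVB/N background, with CD109 (CD109+/+) or without it (CD109-/-), 24 h after DMBA, a carcinogen that damages DNA in keratinocytes, or without DMBA. The descriptions of the untreated samples name acetone, the solvent. Each of the 4 groups, CD109+/+ DMBA, CD109-/- DMBA, CD109+/+ untreated and CD109-/- untreated, has 2 one-colour arrays, and all 8 arrays lay on 1 slide. The CD109-/- line had been backcrossed to FVB/N and the CD109+/+ mice were purchased, so the genotypes were not littermates. The mouse behind each array was not named, so the p-values measure the spread between samples, which may be technical. CD109 is a GPI-anchored surface protein of keratinocytes that binds TGF-beta receptors and limits their signalling, and TGF-beta is a well-known inducer of collagen genes.

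Collagens are trimers wound as a triple helix, and their classes differ in what they build. Fibrillar collagens such as types I, III and V form the banded fibrils of the dermis. Type IV collagen forms the network of basement membranes, including that under the epidermis and around the hair follicle. Type VII collagen makes the anchoring fibrils that tie this membrane to the dermis, and type XVII collagen spans the membrane of basal keratinocytes in hemidesmosomes. FACIT collagens sit on fibril surfaces, type VI forms beaded filaments, types VIII and X form hexagonal networks, and multiplexins carry heparan or chondroitin chains in the basement membrane zone. In skin most fibrillar collagen comes from fibroblasts, whereas type VII and type XVII chains come largely from keratinocytes.

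Values are log2 of the processed intensity over the 75th percentile of the same array, so that 0 is the 75th percentile. They can be compared between arrays for 1 gene but not between genes. The 75th percentile lay between 382 and 626 intensity units, and between 63.6% and 67.0% of spots were well above background. The Cd109 probe read 0.84 and 1.42 on the CD109+/+ DMBA arrays and -8.06 and -7.70 on the CD109-/- DMBA arrays. It read 2.06 and -6.49 on the CD109+/+ untreated arrays and 1.66 and -8.11 on the CD109-/- untreated arrays. The array labelled CD109+/+ untreated replicate 2 and the array labelled CD109-/- untreated replicate 1 thus went against their labels. The labels were kept, and every test was also run with these 2 arrays exchanged. The exchange was found from the values, and the p-values it gives are a description of that division, not independent evidence. The difference between genotypes after DMBA and the mean difference between DMBA and untreated arrays have the same value either way, and only their errors differ.

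Some cell type markers moved with the Cd109 signal. All 6 markers of basal epidermis, which include Krt5 and Krt14, and all 8 fibroblast markers were well above background on all 8 arrays. The summed signal of the 7 inner root sheath markers, in multiples of the 75th percentile, was 1.71 to 1.96 on the CD109+/+ DMBA arrays and 472 to 1547 on the CD109-/- DMBA arrays. It was 3.24 and 1220 on the CD109+/+ untreated arrays and 3.11 and 997 on the CD109-/- untreated arrays, where the high value belonged in each group to the array with low Cd109. The 7 measured hair shaft markers of 9 behaved alike, with 2.45 to 2.72 against 82.4 to 1385 after DMBA. None of these markers was below background on every array. After DMBA the summed skeletal muscle signal was 555 to 702 on the CD109+/+ arrays and 228 to 385 on the CD109-/- arrays, the adipocyte signal 312 to 362 and 160.3 to 247, and the mural cell signal 39.8 to 45.9 and 22.1 to 25.4. The Schwann cell signal went the other way, with 31.4 to 41.8 and 81.5 to 108.9. The dermal papilla and endothelium signals overlapped between these groups. Over all 8 arrays the muscle signal was 228 to 396 with low Cd109 and 555 to 955 with high Cd109. The adipocyte, mural cell, fibroblast and macrophage signals were likewise split by Cd109, and the Schwann cell and basal epidermis signals overlapped. The part of these cell types in the collagen values was not tested. In whole skin, fewer cells of a type and less RNA per cell cannot be told apart.

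Of the 44 genes, 33 were well above background on all 8 arrays and 41 passed the filter on dim probes. Col6a4, Col9a3 and Col19a1 were not well above background on any array and were not tested. With the labels as deposited, limma's moderated test with Benjamini-Hochberg adjustment over 36917 probes called 0 of the 41 collagen genes in any of 7 comparisons. The genotype difference after DMBA was called for 0.0813% of all probes, and at an unadjusted p under 0.05 for 14 collagen genes against 26.1% of all probes. For the genotype difference in untreated skin the same shares were 0.00542% and 2.15%, with 1 collagen gene at the unadjusted level. Averaged over treatments they were 0.00271% and 12.4%, with 7 collagen genes. For DMBA averaged over genotypes they were 0.0298% and 11.5%, with 8 collagen genes. For DMBA in CD109+/+ skin they were 0.179% and 11.4%, with 9 collagen genes. For DMBA in CD109-/- skin they were 0% and 14.6%, with 7 collagen genes, and for the difference of the DMBA effect between genotypes 0% and 15.9%, with 8. The methods' test also called 0 collagen genes in each of the 7 comparisons after adjustment, and 11, 0, 8, 7, 8, 2 and 8 in this order without it. The shares of all probes past the methods' test are not given, so these counts cannot be set against them. In simulated data with 50 changed probes of each size, limma called 18 of those changed by 2 on the log2 scale and 0 of those changed by 1 with the labels as deposited.

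With the 2 untreated arrays exchanged, 11 collagen genes passed as higher in CD109-/- skin after DMBA and 2 as lower, beside 13.1% and 7.59% of all 37144 probes tested. The 11 were Col1a1, Col4a5, Col4a6, Col7a1, Col10a1, Col11a1, Col11a2, Col15a1, Col24a1, Col25a1 and Col26a1, and the 2 were Col4a2 and Col6a5. Of these Col10a1 passed the filter on dim probes only through CD109-/- groups, where it was high. The split rested on the scaling, with 10 higher and 11 lower after median centring, 9 and 4 after quantile normalization and 15 and 6 after normexp background correction, and 0 passed in a fit of only the arrays compared or by the methods' test after adjustment. Here and below, shares of all probes under alternative settings are not given, so such counts cannot be set against them. This count of 13 fell to 1 without CD109+/+ DMBA replicate 1, to 2 without CD109+/+ DMBA replicate 2 and to 4 without CD109-/- DMBA replicate 2, and was 19 without CD109-/- DMBA replicate 1. In untreated skin Col2a1, Col10a1, Col11a1, Col24a1 and Col26a1 passed as higher and Col6a5, Col8a1 and Col17a1 as lower under the exchange, 5 and 3 genes beside 5.13% and 3.83% of all probes, and 2 and 5 after normexp. Leaving out 1 array gave between 2 and 9 in all, with 2 or 3 without either array labelled CD109+/+ untreated or without CD109-/- untreated replicate 2 and 4 without its replicate 1. Averaged over treatments 11 passed as higher and 5 as lower (16.6% and 14.6%), and 9 and 9 after median centring. In that division the groups of 4 did not overlap for 8 collagen genes that were higher in CD109-/- skin and for 3 that were lower, beside 14.8% and 12.7% of all probes.

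A comparison that does not depend on the untreated labels asks which arrays of a DMBA group lay outside the range of the other 6. It was chosen after the values were seen. Its counts and shares, and those of overlap below, were taken only under the scaling described above. How far they rest on that scaling was not tested. Median centring moved every genotype difference after DMBA by -0.38, which is larger in size than those of Col1a2 (log2 0.31) and Col16a1 (log2 0.33). Both CD109+/+ DMBA arrays lay below all other arrays for 12 of 41 collagen genes (29.3%, beside 13.4% of all probes), namely Col1a1, Col1a2, Col4a5, Col4a6, Col7a1, Col8a2, Col11a1, Col11a2, Col15a1, Col16a1, Col20a1 and Col25a1. They lay above all others for Col13a1, Col14a1 and Col18a1 (7.32%, beside 11.7%). Both CD109-/- DMBA arrays lay below all others for Col4a1, Col4a2, Col4a4 and Col6a6 (9.76%, beside 7.11%) and above them for Col1a1, Col7a1 and Col15a1 (7.32%, beside 16.3%). These counts take only the brightest tested probe of each gene, whereas the shares are of all probes. Further tested probes did not repeat the order for Col4a4, Col4a6, Col6a6, Col14a1, Col15a1, Col20a1 and Col25a1. For Col18a1 the second probe did, and for Col16a1 a further probe did and another did not. The counts thus rest in part on the choice of probe. The 2 DMBA groups alone did not overlap for 17 collagen genes that were higher in CD109-/- skin (41.7% of all probes) and 11 that were lower (29.8%).

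**Figure D1:**
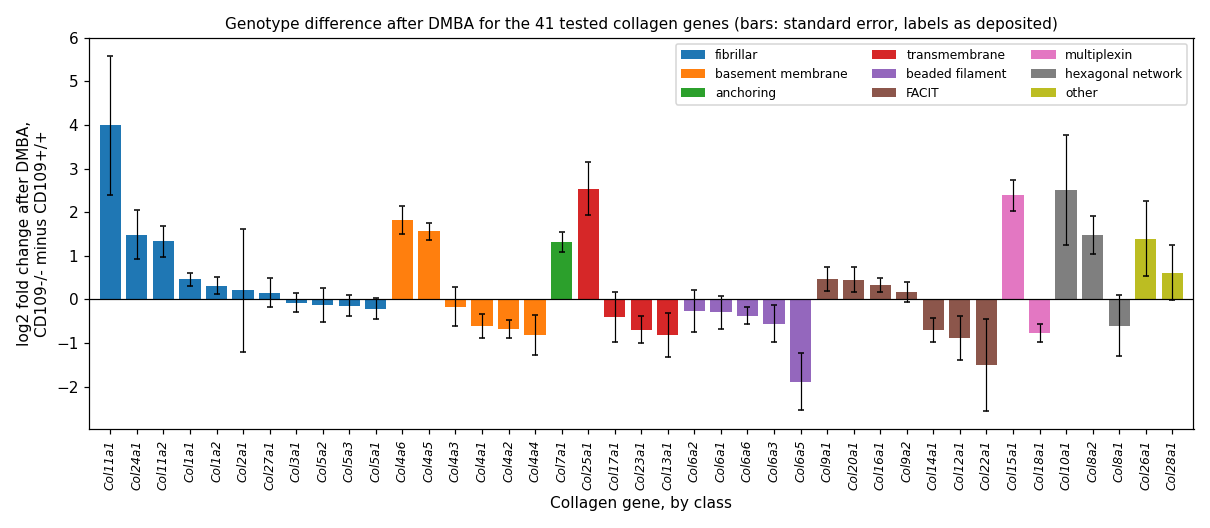
Log2 fold change between CD109-/- DMBA and CD109+/+ DMBA arrays for the 41 tested collagen genes, grouped by class, as coloured bars with whiskers of 1 standard error from limma (labels as deposited); those of Col4a3, Col10a1, Col22a1 and Col25a1 include signals not well above background. Col11a1 lies highest at 3.998 and Col6a5 lowest at -1.89, while Col3a1 lies at -0.08.

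Among the genes that were lowest on the CD109+/+ DMBA arrays, Col4a5, Col4a6 and Col7a1 encode parts of the dermal-epidermal junction. The bases before their starts are shown because Col4a5 and Col4a6 are neighbours transcribed away from each other on the X chromosome, and Col7a1, on another chromosome, shared their low values. The RefSeq table (GRCm38.p6) held 35 of the 44 genes, and the 250 bases before the start are printed 5′ to 3′ on the gene's strand. Capitals mark matches, on either strand, to the GC box GGGCGG, to the box sequence CCAAT and to the box sequence TATAAA, and no match overlaps another here.
Col4a5 (chrX:141475169-141475418, plus strand): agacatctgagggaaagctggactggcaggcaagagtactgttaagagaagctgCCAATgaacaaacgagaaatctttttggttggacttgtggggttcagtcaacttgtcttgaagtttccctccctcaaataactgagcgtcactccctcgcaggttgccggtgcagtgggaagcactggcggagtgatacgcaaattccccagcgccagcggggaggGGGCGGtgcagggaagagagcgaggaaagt
Col4a6 (chrX:141474077-141474326, minus strand): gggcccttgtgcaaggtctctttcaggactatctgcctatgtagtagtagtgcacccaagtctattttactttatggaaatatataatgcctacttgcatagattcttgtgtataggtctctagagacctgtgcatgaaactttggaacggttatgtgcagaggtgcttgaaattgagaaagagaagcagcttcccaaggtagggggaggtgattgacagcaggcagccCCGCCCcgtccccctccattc
Col7a1 (chr9:108953336-108953585, plus strand): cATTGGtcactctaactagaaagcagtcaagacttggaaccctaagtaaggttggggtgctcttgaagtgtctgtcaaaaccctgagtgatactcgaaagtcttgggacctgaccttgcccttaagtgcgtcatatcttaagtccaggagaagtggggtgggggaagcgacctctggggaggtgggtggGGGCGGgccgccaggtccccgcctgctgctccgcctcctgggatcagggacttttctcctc
Each of the 3 held GGGCGG once, Col4a5 and Col7a1 also held CCAAT once, and TATAAA was not among these letters. Of 32851 windows of the same length in the table, 32.7% held GGGCGG, 33.8% CCAAT and 12.4% TATAAA. Among the 35 collagen genes 21 held GGGCGG, 13 CCAAT and 5 TATAAA. A match is a description of the letters and not a site.

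Within type IV collagen the chains differed by genotype in opposite directions after DMBA. Col4a5, a chain found in basement membranes of skin and kidney, read -2.46 and -2.17 on the CD109+/+ DMBA arrays and -0.92 and -0.60 on the CD109-/- DMBA arrays. On the 4 untreated arrays it read -0.74 and -0.77 (CD109+/+) and -0.78 and -0.76 (CD109-/-). The 4 untreated arrays thus nearly coincided and lay in the range of the CD109-/- DMBA arrays, and the CD109+/+ DMBA arrays stood alone below them. After DMBA the CD109-/- arrays were 2.95-fold above the CD109+/+ arrays for Col4a5 (log2 1.56 ± 0.19 SE, adjusted p = 0.0745 by limma), and passed with the arrays exchanged (adjusted p = 0.0133). In CD109+/+ skin Col4a5 was lower after DMBA by a log2 difference of -1.56 (adjusted p = 0.068, and 0.0169 with the arrays exchanged).

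Col4a6, the partner chain of Col4a5 in smooth muscle and skin, read -2.67 and -1.90 on the CD109+/+ DMBA arrays and -0.63 and -0.30 on the CD109-/- DMBA arrays. It read 0.04 and -0.38 on the CD109+/+ untreated arrays and -0.01 and -0.31 on the CD109-/- untreated arrays. Again only the CD109+/+ DMBA arrays were set apart. The difference between genotypes after DMBA was 3.53-fold (log2 1.82 ± 0.32, adjusted p = 0.0906 by limma, and 0.0206 with the arrays exchanged). A second, dimmer Col4a6 probe did not show it, with -2.77 and -2.89 on the CD109+/+ DMBA arrays, -2.76 and -2.996 on the CD109-/- DMBA arrays and a log2 difference of -0.05. The mean of both probes gave 0.89 (adjusted p = 0.105, and 0.026 with the arrays exchanged). The reason for the disagreement of the probes was not tested, and the Col4a6 value rests on 1 probe.

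Col4a1 and Col4a2, which form the type IV trimer of most basement membranes and also start next to each other on opposite strands, were lowest on the CD109-/- DMBA arrays. Col4a1 read 3.15 and 2.72 on the CD109+/+ DMBA arrays, 2.44 and 2.19 on the CD109-/- DMBA arrays, and between 2.66 and 3.27 on the 4 untreated arrays. Col4a2 read 3.03 and 2.62, then 2.21 and 2.06, and between 2.69 and 2.92 on the untreated arrays. After DMBA Col4a1 was lower in CD109-/- skin by 1.53-fold (log2 -0.62 ± 0.28, adjusted p = 0.217) and Col4a2 by 1.61-fold (log2 -0.69 ± 0.20, adjusted p = 0.122). With the arrays exchanged Col4a2 passed (adjusted p = 0.0445) and Col4a1 did not (adjusted p = 0.0673).

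Col4a4, which with Col4a3 and Col4a5 makes the type IV network of the glomerulus, read -1.98 and -2.55 on the CD109+/+ DMBA arrays and -3.26 and -2.91 on the CD109-/- DMBA arrays. The 4 untreated arrays were at -1.48, -2.61, -1.52 and -2.25, in an order that followed Cd109 and not the labels. The log2 difference after DMBA was -0.82 ± 0.46 (adjusted p = 0.293 by limma). Its other probes gave -0.74 and -0.64 (adjusted p = 0.201 and 0.702 by limma). In neither were both CD109-/- DMBA arrays below all others. Col4a3 was not well above background on any DMBA array and was so on 3 of 4 untreated arrays. It was at least 1.60-fold lower after DMBA in CD109+/+ skin and at least 1.21-fold lower in CD109-/- skin (adjusted p = 0.308 and 0.246). Here and elsewhere "at least" sets the mean of the measured group against a floor for the other group. The floor on each array was the larger of the gene's own signal and the array's dimmest signal well above background. Detection was judged for each spot, so a signal above that dimmest one can still fail it. On CD109-/- untreated replicate 2, Col4a3 at -5.74 was well above background and Col9a1 at -5.70 was not. All "at least" values are thus approximate. For Col4a3 the measured mean included CD109+/+ untreated replicate 1, itself not well above background, so that 1.60-fold is not a strict bound. All 6 type IV genes had a lower mean on the 4 DMBA arrays than on the 4 untreated arrays, from -0.36 (Col4a1 and Col4a2) to -1.73 (Col4a3), with a class median of -0.74 beside 0.04 for all probes. Within a genotype they did not fall together. As labelled, 2 (Col4a1 and Col4a2) were slightly higher after DMBA in CD109+/+ skin, and 1 (Col4a5) in CD109-/- skin. Col4a3 passed the filter on dim probes through untreated arrays alone, where it was high. None passed with the labels as deposited, and Col4a5 (-0.78 ± 0.13) and Col4a6 (-1.21 ± 0.23) passed at adjusted p = 0.0467 and 0.0491 with the arrays exchanged, but in the deposited value table these were 0.052 and 0.0542.

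Col7a1, the anchoring fibril collagen, read 2.44 and 2.41 on the CD109+/+ DMBA arrays and 3.76 and 3.73 on the CD109-/- DMBA arrays. The untreated arrays lay between, at 3.63 and 3.004 (CD109+/+) and 3.19 and 3.33 (CD109-/-). Here both DMBA groups were outside the untreated range, the CD109+/+ arrays below and the CD109-/- arrays above it. Col7a1 was 2.50-fold higher in CD109-/- skin after DMBA (log2 1.32 ± 0.23, adjusted p = 0.0911 by limma, and 0.0202 with the arrays exchanged).

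**Figure D2:**
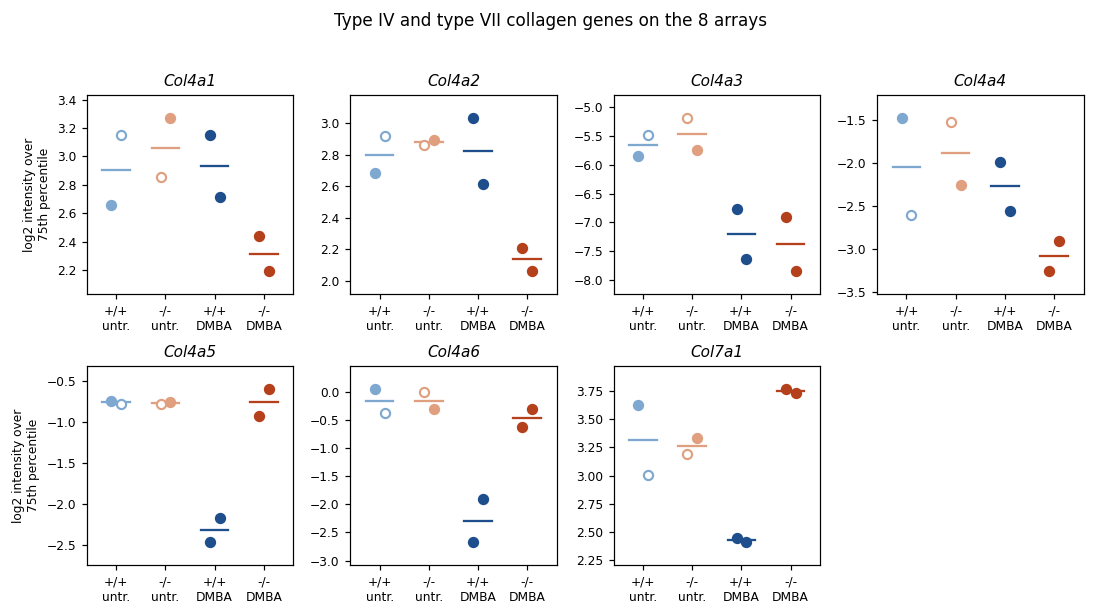
Log2 intensity over the 75th percentile of the array for the 6 type IV genes and Col7a1, one point per array and a line at the group mean. Open points are the 2 arrays whose Cd109 signal went against the label. For Col4a5, Col4a6 and Col7a1 the CD109+/+ DMBA arrays are lowest, whereas for Col4a1, Col4a2 and Col4a4 the CD109-/- DMBA arrays are lowest.

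The abundant dermal fibrillar genes hardly moved. Col1a1, which with Col1a2 makes type I collagen, stayed between 6.68 and 7.27 on all 8 arrays, with 6.80 and 6.68 on the CD109+/+ DMBA arrays and 7.27 and 7.13 on the CD109-/- DMBA arrays. Its genotype difference after DMBA was 1.38-fold (log2 0.46 ± 0.15, adjusted p = 0.142, and 0.0462 with the arrays exchanged). Centring the arrays on their medians in place of the 75th percentile moved every fold change in this comparison by -0.38, which left Col1a1 at 0.08 (adjusted p = 0.783, and 0.715 with the arrays exchanged). Col1a2 read 8.09 and 7.97 against 8.53 and 8.15 (log2 0.31 ± 0.19), and turned to -0.068 under that centring. Col3a1, the chain of type III collagen, stayed between 7.18 and 7.70 on the 8 arrays, and the values of the 2 DMBA groups overlapped. The type V genes, whose products set fibril diameter, gave log2 differences of -0.22 (Col5a1), -0.13 (Col5a2) and -0.15 (Col5a3), and Col27a1, a fibrillar gene best known from cartilage, gave 0.16, each with adjusted p above that of Col1a1. The summed signal of the 8 fibroblast markers was 269 to 300.2 on the CD109+/+ DMBA arrays and 156 to 219 on the CD109-/- DMBA arrays, and its part in these values was not tested.

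The fibrillar genes with the larger differences were those of minor fibril chains. Col11a1, which with Col11a2 belongs to the thin fibrils of cartilage, read -4.74 and -4.24 on the CD109+/+ DMBA arrays and -0.41 and -0.58 on the CD109-/- DMBA arrays. On the untreated arrays it read -3.33 and 0.32 (CD109+/+) and -3.47 and 0.54 (CD109-/-). The 4 arrays with low Cd109 all lay at or above -0.58 and the other 4 all at or below -3.33. After DMBA it was 16.0-fold higher in CD109-/- skin (log2 3.998 ± 1.59, adjusted p = 0.186, and ± 0.20, adjusted p = 0.00477, with the arrays exchanged). Col24a1 read -5.49 and -4.99 against -3.68 and -3.83 (log2 1.48 ± 0.57, adjusted p = 0.174, and 0.0226 with the arrays exchanged), and its untreated arrays were likewise split by Cd109, at -4.14 and -3.65 against -5.09 and -5.17. Col11a2 read -4.75 and -4.31 against -3.56 and -2.84 (log2 1.33 ± 0.35, adjusted p = 0.111, and 0.0384 with the arrays exchanged). Of the 11 fibrillar genes 7 had a positive and 4 a negative genotype difference after DMBA, with a median of 0.21 beside 0.12 for all probes. After median centring 4 were positive and 7 negative, with a median of -0.17 beside -0.26, and after quantile normalization 5 and 6.

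Col2a1, the type II collagen of cartilage, was the one collagen gene whose 4 DMBA arrays all lay above its 4 untreated arrays, beside 3.78% of all probes. It read -2.73 and -2.29 (CD109+/+) and -2.08 and -2.53 (CD109-/-) after DMBA, and -7.85, -4.52, -7.94 and -4.52 untreated. The 2 lowest untreated arrays, 1 of each labelled genotype and both with high Cd109, were not well above background. As labelled, Col2a1 thus passed the filter on dim probes through the DMBA groups alone, where it was high. The mean difference was 3.80 ± 1.00 on the log2 scale (adjusted p = 0.288, and ± 0.15, adjusted p = 0.00622, with the arrays exchanged). In the exchanged division Col2a1 was at least 10.6-fold higher after DMBA in CD109+/+ skin (adjusted p = 0.00395). After normexp background correction the mean difference was 1.25 and passed with the labels as deposited (adjusted p = 0.0498). Col4a3 and Col6a6 were the 2 genes whose DMBA arrays all lay below the untreated ones, beside 2.38% of all probes. A second, dimmer Col6a6 probe overlapped, with -5.79 to -5.33 after DMBA and -5.75 to -4.78 untreated.

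**Figure D3:**
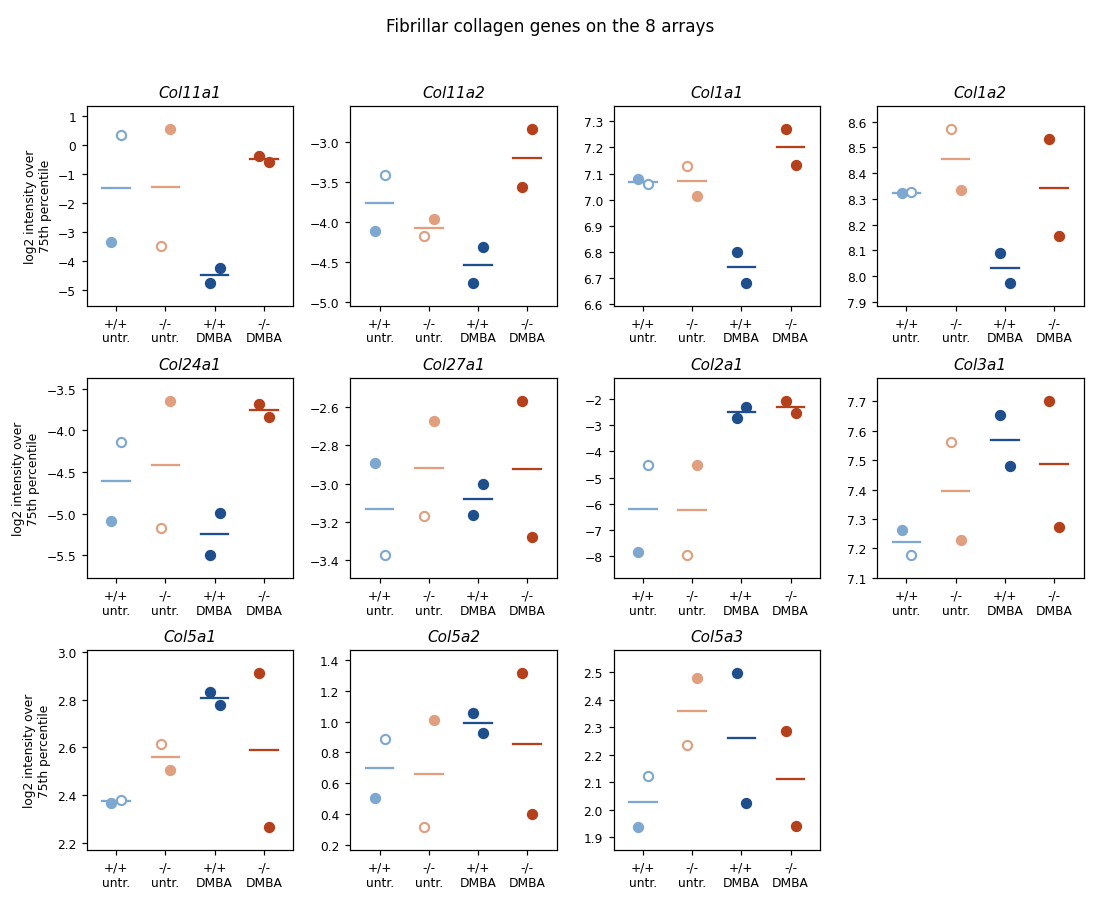
Log2 intensity over the 75th percentile of the array for the 11 fibrillar genes, one point per array and a line at the group mean, with open points for the 2 arrays whose Cd109 signal went against the label. The vertical scales differ, and Col1a1 lies between 6.68 and 7.27 whereas Col11a1 lies between -4.74 and 0.54.

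Under the exchange the mean difference between DMBA and untreated arrays passed for Col2a1 as higher and for Col4a5, Col4a6 and Col11a1 as lower, beside 1.11% and 0.466% of all probes. The split of 1 and 3 was 1 and 1 after median centring or in the deposited value table and 1 and 0 after quantile normalization. Leaving out any 1 array, of any group, left 1 gene in all. In CD109+/+ skin alone Col2a1 passed as higher and Col4a5 and Col4a6 as lower (2.29% and 1.22%), or 2 and 2 after median centring, with 0 to 4 in all when 1 array was left out, 0 without CD109+/+ DMBA replicate 1, 1 without either array of either untreated group and 2 without CD109+/+ DMBA replicate 2. In CD109-/- skin and for the difference of the DMBA effect between genotypes 0 collagen genes passed, beside 0.0215% and 0.035% of all probes. The slide held the DMBA arrays in 1 row, and slide row and treatment cannot be told apart.

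Of the 4 transmembrane genes Col25a1 went against the other 3 after DMBA (2 positive and 2 negative after normexp). Col25a1, a collagen of neurons and muscle, was not well above background on the CD109+/+ DMBA arrays (-6.00 and -6.90) and read -4.36 and -3.47 on the CD109-/- DMBA arrays. It was at least 4.88-fold higher in CD109-/- skin (adjusted p = 0.104, and 0.0232 with the arrays exchanged). Untreated it read -5.52 and -4.56 (CD109+/+) and -5.35 and -4.06 (CD109-/-), the higher array of each pair being that with low Cd109. A second Col25a1 probe gave a log2 difference of 1.28 (adjusted p = 0.118 with the arrays exchanged) against 2.54 for the brighter one. Col17a1, the hemidesmosomal collagen of basal keratinocytes, read 3.04 and 3.28 on the CD109+/+ DMBA arrays and 2.75 and 2.74 on the CD109-/- DMBA arrays (log2 -0.41 ± 0.57, adjusted p = 0.656). On the untreated arrays it read 3.89 and 2.36 (CD109+/+) and 3.56 and 2.44 (CD109-/-), so that all 4 arrays with high Cd109 lay above the other 4. Under the exchange Col17a1 passed as lower in untreated CD109-/- skin (log2 -1.32, adjusted p = 0.0121). Col23a1 read -0.86 and -0.83 against -1.29 and -1.78 (log2 -0.69 ± 0.31, adjusted p = 0.22, and 0.0579 with the arrays exchanged). Its other probes gave -0.87 and -1.11 (adjusted p = 0.122 and 0.156 by limma). Both passed with the arrays exchanged (adjusted p = 0.0292 and 0.0426 by limma). Col13a1, an adhesion collagen, read -3.87 and -4.37 against -5.002 and -4.86, and its untreated arrays ranged from -6.84 to -4.72. The summed signal of the 6 basal epidermis markers was 692 to 724 on the CD109+/+ DMBA arrays and 541 to 552 on the CD109-/- DMBA arrays, and its part in these values was not tested.

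The remaining classes held a few genes with large values among many flat ones. Col15a1, a multiplexin of the basement membrane zone, read -3.06 and -3.33 on the CD109+/+ DMBA arrays, -0.75 and -0.87 on the CD109-/- DMBA arrays and between -2.70 and -1.66 untreated. It was 5.22-fold higher in CD109-/- skin after DMBA (log2 2.38 ± 0.36, adjusted p = 0.085, and 0.00898 with the arrays exchanged). The other 2 Col15a1 probes gave 0.45 and 0.41, so that the size rests on 1 probe of 3, and the mean of the probes gave 1.08. Col18a1, the multiplexin whose end fragment is endostatin, went the other way, with 4.38 and 4.09 against 3.35 and 3.59 (log2 -0.77 ± 0.20, adjusted p = 0.111). A second Col18a1 probe gave -0.31 (adjusted p = 0.338).

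Among the hexagonal network genes Col10a1, best known from hypertrophic cartilage, was well above background on the 4 arrays with low Cd109 alone. After DMBA it was at least 3.90-fold higher in CD109-/- skin (-4.22 and -4.53 against -6.88 and -6.89, adjusted p = 0.255, and 0.0245 with the arrays exchanged). In either division it passed the filter on dim probes only through CD109-/- groups, where it was high, so these p-values are not independent support. Col8a2, a collagen of corneal and vessel matrix, read -3.64 and -2.61 against -2.10 and -1.19 (log2 1.48 ± 0.44, adjusted p = 0.124) and between -1.49 and -0.69 untreated. Its DMBA mean was lower than its untreated mean by a log2 difference of -1.19 ± 0.31 (adjusted p = 0.288). Col8a1, its partner chain in type VIII collagen, read -1.54 and -1.94 against -2.49 and -2.20, and untreated -1.78 and -3.44 (CD109+/+) and -2.21 and -3.78 (CD109-/-), the lower array of each pair being that with low Cd109. Col26a1, of no fixed class, read -4.001 and -3.94 against -2.34 and -2.82 (log2 1.39 ± 0.86, adjusted p = 0.33, and 0.0253 with the arrays exchanged). Untreated it read -3.73 and -2.09 (CD109+/+) and -4.27 and -1.90 (CD109-/-), the higher array of each pair being that with low Cd109. Col28a1 was well above background on 5 arrays, and read -5.46 and -5.96 against -5.56 and -4.64 after DMBA, where the genotypes overlapped, and between -7.16 and -5.08 untreated.

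All 5 tested type VI genes were lower in CD109-/- skin after DMBA by their means, with a median of -0.37 (4 of 5 after normexp). That median was the value of Col6a6, whose second, dimmer probe gave -0.02 (adjusted p = 0.963 by limma). Col6a5, a chain expressed in skin, read -2.01 and -2.10 against -3.62 and -4.27 (log2 -1.89 ± 0.65, adjusted p = 0.151, and 0.024 with the arrays exchanged). Untreated it read -2.07 and -3.89 (CD109+/+) and -2.10 and -3.12 (CD109-/-), the lower array of each pair being that with low Cd109. For Col6a1, Col6a2 and Col6a3, the chains of the common type VI filament, the CD109-/- DMBA arrays disagreed by over 1 on the log2 scale, with Col6a1 at 5.45 and 4.36, Col6a2 at 3.17 and 1.82 and Col6a3 at 5.05 and 3.76. Their genotype differences were within that spread. Col6a6 was lower on DMBA arrays by a mean of -0.51 ± 0.14 (adjusted p = 0.292). Of the 7 tested FACIT genes 4 were positive and 3 negative after DMBA (2 and 5 after median centring or quantile normalization, and 5 and 2 after normexp), and 0 passed in either division of the arrays. Col22a1, a collagen of tissue junctions, read -3.83 and -4.74 against -4.60 and -6.98 with overlapping groups, the last not well above background, and untreated -2.46, -4.01, -2.91 and -4.91. Col9a1, Col9a2, Col16a1 and Col20a1 had genotype differences after DMBA between 0.17 and 0.46. Col14a1, which binds dermal fibrils and was picked after its values were seen, read 3.94 and 3.71 against 3.24 and 3.01 (log2 -0.70 ± 0.27, adjusted p = 0.181). Col12a1, also found on fibril surfaces, read 1.31 and 0.57 against -0.46 and 0.59 and between -0.71 and 0.11 untreated, and had a DMBA mean 0.83 ± 0.36 above the untreated mean (adjusted p = 0.458).

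**Figure D4:**
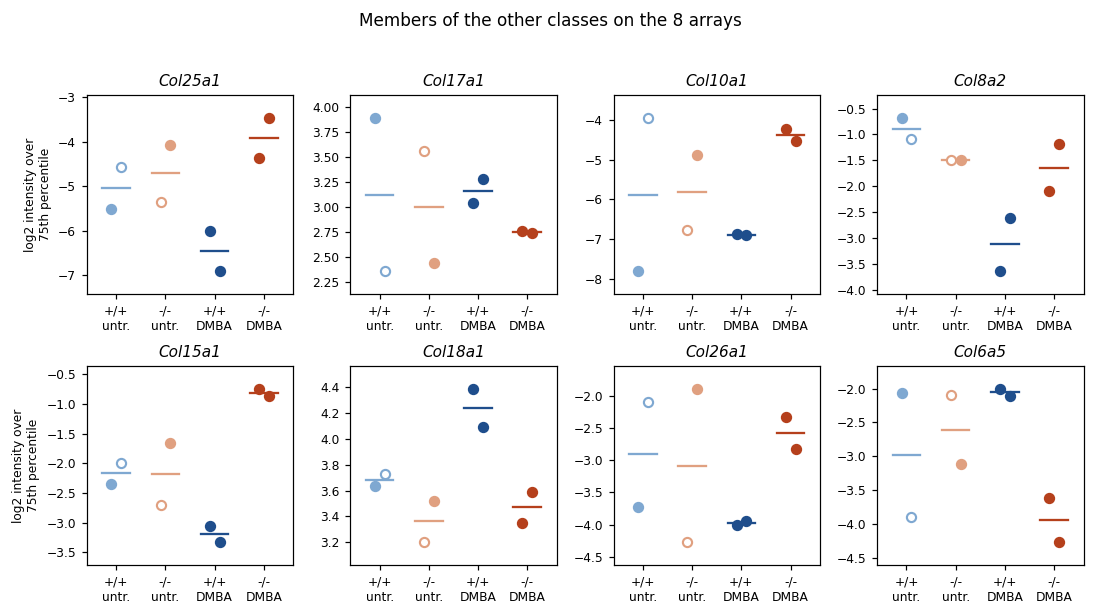
Log2 intensity over the 75th percentile of the array for 8 genes of the transmembrane, network, multiplexin and other classes, one point per array and a line at the group mean, with open points for the 2 arrays whose Cd109 signal went against the label. Col25a1, Col10a1, Col15a1 and Col26a1 are higher on the CD109-/- DMBA than on the CD109+/+ DMBA arrays, while Col18a1 and Col6a5 are lower.

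Genes that make, cut and bind collagen were taken from 5 lists. With the labels as deposited 0 of their 85 tested genes passed in the genotype comparison after DMBA. Of 11 genes of collagenases and collagen uptake all 11 had a lower mean in CD109-/- skin, under each scaling tried too, with a median of -2.07 beside 0.12 for all probes. Of these 10 were lower at an unadjusted p under 0.05, beside 9.19% of all probes, and 9 passed as lower with the arrays exchanged, beside 7.59%. Mmp13, the main interstitial collagenase of the mouse, read -0.77 and -1.27 on the CD109+/+ DMBA arrays and -4.89 and -4.69 on the CD109-/- DMBA arrays (log2 -3.77 ± 0.43, adjusted p = 0.0716, and 0.0175 with the arrays exchanged). Its untreated arrays lay between -5.19 and -3.63. Mmp8, the collagenase of neutrophils, read -1.07 and -1.44 against -3.66 and -4.00 (log2 -2.57 ± 0.35, adjusted p = 0.0827, and 0.0115 exchanged). Its 4 DMBA arrays lay above its 4 untreated arrays (-6.01 to -5.06), beside 3.78% of all probes, with a mean difference of 2.86 ± 0.25 (adjusted p = 0.0583, and 0.0124 exchanged). Mmp3, which activates collagenases, read 4.75 and 4.52 against 2.44 and 1.68 (log2 -2.57 ± 0.38, adjusted p = 0.0833, and 0.0114 exchanged). For Mmp13 and Mmp3 the CD109+/+ DMBA arrays stood above the other 6.

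The summed signal of the 5 macrophage markers was 179 to 190.0 on the CD109+/+ DMBA arrays and 46.3 to 70.0 on the CD109-/- DMBA arrays, and that of the 5 neutrophil markers, which include Mmp8, was 240 to 375 and 161 to 318. All of these markers were well above background on 1 array or more, and their part in the collagenase values was not tested.

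Of 30 tested biosynthesis genes 12 were lower in CD109-/- skin after DMBA at an unadjusted p under 0.05 and 0 higher (9.19% and 16.9% of all probes), with a median of -0.66, and 11 passed as lower with the arrays exchanged (7.59% of all probes). Those with the smallest p were the crosslinking enzymes Loxl4 (log2 -1.27 ± 0.27, adjusted p = 0.0997) and Lox (-1.20 ± 0.28, adjusted p = 0.104) and the lysyl hydroxylase Plod3 (-1.06 ± 0.24, adjusted p = 0.102). Of 13 tested fibril-associated genes 3 passed as lower with the arrays exchanged, again beside 7.59%, among them Thbs2, a matricellular protein (-1.57, adjusted p = 0.0284), and the proteoglycan Bgn (-0.73, adjusted p = 0.0473). Of 8 tested receptors 1 passed as higher and 3 as lower in that division, beside 13.1% and 7.59% of all probes. Itga11, the collagen receptor subunit of fibroblasts, read 3.48 and 2.86 on the CD109+/+ DMBA arrays, 1.24 and 1.28 on the CD109-/- DMBA arrays and between 2.59 and 3.90 untreated (log2 -1.91 ± 0.42, adjusted p = 0.0997, and 0.0212 exchanged). Ddr1, a collagen receptor of epithelia, was the one that passed as higher (0.91, adjusted p = 0.0427).

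Of the 23 basement membrane partners 6 passed as higher and 9 as lower in the exchanged division, beside 13.1% and 7.59% of all probes. Lama3, a laminin chain of the epidermal basement membrane, read 1.52 and 1.04 on the CD109+/+ DMBA arrays, 0.02 and 0.01 on the CD109-/- DMBA arrays and between 0.12 and 0.64 untreated (log2 -1.27 ± 0.24, adjusted p = 0.0959, and 0.0265 exchanged). Its CD109+/+ DMBA arrays lay above the other 6. Frem2, part of a complex that holds epidermis to dermis in the embryo, read -2.23 and -2.00 against -0.66 and -1.25 (log2 1.16 ± 0.26, adjusted p = 0.1, and 0.0313 exchanged), with the untreated arrays between -0.73 and -0.36. As with Col4a5, the CD109+/+ DMBA arrays of Frem2 lay below the other 6. For DMBA averaged over genotypes, 1 gene of these lists passed in the exchanged division in each of the collagenases (Mmp8), the receptors (Lair1, an inhibitory receptor of leukocytes, 0.81 ± 0.20 with the labels as deposited) and the basement membrane partners (the laminin chain Lamc3, -1.04 ± 0.28). Mmp8 and Lair1 passed as higher and Lamc3 as lower, beside 1.11% and 0.466% of all probes. Lama2, a laminin chain of muscle and nerve, and Fmod, which binds fibrils, did not pass, but their 4 DMBA arrays all lay below their 4 untreated arrays (log2 -1.31 ± 0.28 and -1.14 ± 0.27, adjusted p = 0.234 and 0.258). Such an order held for 2.38% of all probes. Lama2 read between 1.05 and 2.15 after DMBA and between 2.71 and 3.52 untreated.

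**Figure D5:**
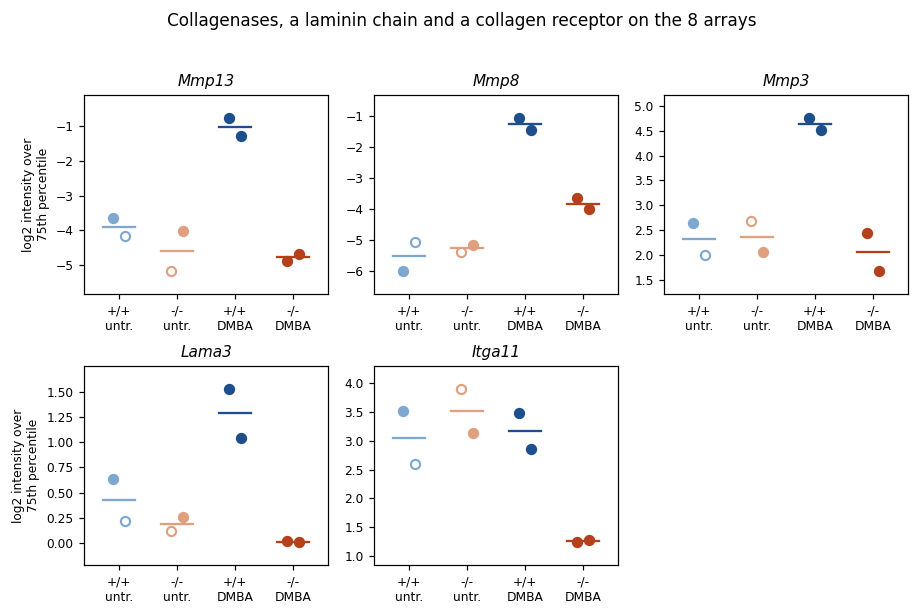
Log2 intensity over the 75th percentile of the array for 3 matrix metalloproteinases, the laminin chain Lama3 and the receptor subunit Itga11, one point per array and a line at the group mean, with open points for the 2 arrays whose Cd109 signal went against the label. The CD109+/+ DMBA arrays are the highest for Mmp13, Mmp8, Mmp3 and Lama3, and the CD109-/- DMBA arrays are the lowest for Itga11.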

How the data were processed

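Total RNA from 8 whole skins was labelled in 1 colour and hybridised to Agilent oligonucleotide arrays whose design names the mouse build mm9. The authors ran Agilent Feature Extraction 11.5.1.1, and the deposited processed intensity is background-subtracted and detrended within the array, not scaled between arrays. The deposited value table holds this intensity times 1 constant per array. Its rule is not stated. Control spots and flagged spots (1598 of 59305) were left out, log2 intensities of spots of 1 probe were averaged, and the log2 75th percentile of each array was subtracted. Of 55458 probes kept, 28026 were named by accession through RefSeq (GRCm38.p6). A probe was tested where both arrays of some group were well above background. limma 3.58.1 (R 4.3.3) fitted 1 mean per group over all 8 arrays, with Benjamini-Hochberg adjustment over all tested probes and a threshold of 0.05, and was tested on simulated data. The methods' two-tailed Student test and 2-way analysis of variance, normexp with an offset of 50, other scalings, filters and probe rules, and leaving out arrays were alternatives, as was exchanging the 2 untreated arrays, and the exchanged division was recomputed under the other alternatives after the data were seen. All members of the fibrillar, type IV, type VII and transmembrane classes are named. Of the other classes the 2 with the largest fold are named per comparison. Of each partner list up to 3 with the smallest p were picked per comparison, and only some of these are named. The members and lists were chosen with earlier results of these data known. The number of arrays limits the precision. One partner gene is not reported here.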

Additional observations from a re-analysis of the deposited data

How the results depend on the processing

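As labelled, 0 collagen genes passed in all 7 comparisons without the 2 arrays in doubt, without any 1 array (0 to 0 in each), and under quantile normalization, median centring, both filters, the mean of the probes and the deposited value table. The exceptions were 4 for the genotype after DMBA with the replicate block, 1 for DMBA averaged over genotypes with normexp, and the methods' test not adjusted, which gave 11 for the genotype after DMBA, 8 averaged over treatments, 7 for DMBA averaged over genotypes, 8 and 2 for DMBA in CD109+/+ and CD109-/- skin and 8 for the difference of effects. Exchanging the 2 arrays gave 13 for the genotype after DMBA, 8 in untreated skin, 16 averaged over treatments, 4 for DMBA averaged over genotypes and 3 for DMBA in CD109+/+ skin. These counts rest on that division and on few arrays. Without 1 array they ranged from 1 to 19 (genotype after DMBA), 2 to 9 (untreated skin), 11 to 18 (averaged over treatments), 1 to 1 (DMBA averaged) and 0 to 4 (DMBA in CD109+/+ skin), and were 0 to 0 for DMBA in CD109-/- skin and the difference of effects. A fit of only the arrays compared left 0 after DMBA and 1 for DMBA in CD109+/+ skin. The methods' test after adjustment left 0 after DMBA, 0 in untreated skin, 1 for DMBA averaged and 0 for DMBA in CD109+/+ skin, and without adjustment gave 12, 11, 9 and 12 for DMBA averaged, in CD109+/+ skin, in CD109-/- skin and for the difference of effects. With normexp the exchanged counts were 21 after DMBA, 8 and 10 for DMBA in CD109+/+ and CD109-/- skin and 5 for the difference of effects. With median centring they were 21 after DMBA, 2 for DMBA averaged and 1 for the difference of effects. For DMBA averaged, the deposited table left 2, no filter 1 and quantile normalization 1. Quantile normalization gave 1 for the difference of effects, and probes well above background on all arrays gave 5 for DMBA in CD109+/+ skin. Col1a2 after DMBA turned to -0.068 under median centring in both divisions, since that scaling moves every fold change in this comparison by -0.38. The cause of the other changes was not tested. The counts in this section stand without the share of all probes called under the same setting, and cannot be read against it.

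The replicate numbers were not taken to pair arrays, since the correlations of same-numbered deviations ran from -0.08 to 0.73 over the pairs of groups. With the replicate block the exchanged counts were 0 in untreated skin, 8 averaged over treatments and 2 for DMBA averaged. Among 118 results for named genes over both divisions, the 2 for Col1a2 after DMBA were those whose direction turned under an alternative. The 118 leave out smaller differences. Those of Col2a1, Col9a2, Col16a1 and Col27a1 after DMBA also turned negative under median centring, which moved this comparison by -0.38. Under normexp the type IV genes were 3 positive and 3 negative after DMBA, in place of 2 and 4. With 2 arrays in each group and signals not well above background on some arrays for Col2a1, Col4a3, Col9a1, Col10a1, Col13a1, Col22a1, Col25a1 and Col28a1, the size of differences that use those arrays is an approximate bound or rests on the background correction.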
